A study of Mus musculus with 6 samples.

Results

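The 10 genes described here encode proteins that build the light-sensing outer segment of the photoreceptor and the matrix around it. They were chosen by symbol and function, with earlier results of these data known, from a table of 22731 genes measured by RNA sequencing of mouse retina. All 10 have a row in that table, and all 10 passed the filter on low values (a mean of at least 1 RPKM, the number of reads relative to gene length and sequencing depth) that left 12599 genes to test. The conditional knockout (cKO) mice carried floxed alleles of Dicer1, labelled Dicerfl/fl, and the transgene iCre75+, which drives Cre recombinase in rods. Control littermates were Dicerfl/fl, iCre75-, so both groups carried the floxed alleles and only cKO mice the transgene. All mice were of a mixed C57BL/6J and SJL background and 4 weeks old, and retinas were taken between 8 and 10 in the morning. Each group had 3 libraries (cKO replicates 2, 3 and 4, control replicates 1, 2 and 3), each from the pooled RNA of 4 mice. Other retinal cells keep Dicer1, and in a whole retina fewer cells of a type and less RNA per cell cannot be told apart.

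A rod outer segment is a modified cilium filled with a stack of membrane discs. New discs form at its base as folds of the plasma membrane, their rims are bent and held by tetraspanins, and a microtubule axoneme runs along one side. The interphotoreceptor matrix is the gel of proteoglycans and soluble carriers between the photoreceptors and the pigment epithelium. Inherited defects in most of these genes cause retinal degeneration in people. The product of Dicer1 cuts precursors into mature microRNAs, and these recognise a target messenger mainly through bases 2 to 8, the seed, which pair with its 3′ untranslated region (3′ UTR).

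The sequences below show where the 10 messengers hold such seed matches, because Dicer1 is needed to make the microRNAs that pair with them. The mature microRNAs miR-183, miR-182 and miR-96 come from 1 cluster on chromosome 6 and are known as abundant in photoreceptors, and let-7a and miR-9 are known from neural tissue in general. RefSeq (GRCm38.p6) gives these mature sequences, 5′ to 3′, with the seed in capitals.
mmu-miR-183-5p: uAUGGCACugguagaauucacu
mmu-miR-182-5p: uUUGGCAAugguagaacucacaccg
mmu-miR-96-5p: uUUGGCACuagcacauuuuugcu
mmu-let-7a-5p: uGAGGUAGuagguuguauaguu
mmu-miR-9-5p: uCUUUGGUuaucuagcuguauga
The seeds of miR-183, miR-182 and miR-96 differ from each other, as do those of let-7a and miR-9, so no 2 of the 5 share a site by all 7 bases.

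Of the 10 messengers, whose longest annotated 3′ UTRs in GENCODE M21 hold between 59 bases (Fscn2) and 2964 bases (Impg2), 3 held a match to 1 of these seeds. Rbp3 held 1 for miR-182, Impg2 held 1 for let-7a and Rom1 held 1 for miR-9, and none of the 10 held a match for miR-183 or miR-96. The match of the seed shared by miR-204 and miR-211, searched in the same way, was in 0 of the 10. Over the 11046 tested genes with an annotated 3′ UTR, 13.0% held the match for miR-182, 10.7% that for let-7a and 14.4% that for miR-9. Among the matches that none of the 10 held, the shares were 11.6% for miR-183, 10.5% for miR-96 and 16.7% for miR-204 and miR-211. The 30 bases around each match follow, on the strand of the gene, with the 7 bases that pair with the seed in capitals.
Rbp3, chr14:33963534-33963563 (GRCm38, plus strand): ttgtcattgcttcccTTGCCAAgccttgtc
Impg2, chr16:56272417-56272446 (GRCm38, plus strand): gaaaacagcacatacCTACCTCacataatg
Rom1, chr19:8927437-8927466 (GRCm38, minus strand): gacagggaagtgacaACCAAAGgactagag
A match is a description of the letters and does not show that the microRNA binds there, and microRNA levels were not measured in this table. No match was searched for in the coding part of the messengers.

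None of the 10 genes passed an adjusted p of 0.05 in limma, the linear model fitted over all 12599 genes, in which 0.00794% of genes passed as higher in cKO retinas and 0% as lower. Before adjustment 0 of the 10 had a limma p under 0.05, against 334 genes higher and 385 lower in cKO of the 12599 tested. At such a share, a count of 0 among 10 genes is not particular to this set. The log2 fold changes of the 10, on the scale of log2(RPKM + 0.5), lay between −0.21 (Rp1) and 0.13 (Rbp3), with standard errors between 0.083 and 0.11. The sign was negative for 7 and positive for 3, and the signs of Rom1, Prom1, Cdhr1 and Impg1 turned when single libraries were left out. The median log2 fold change was −0.024, beside a median of −0.0050 over all genes tested. The median size of the change, without its sign, was 0.049 for the 10 and 0.076 for all genes tested. The 3 cKO values lay below all 3 control values for 1 of the 10, Rp1, and above them for 0, against 5.78% of all genes tested below and 5.91% above.

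A p that misses the threshold does not show that levels were equal, so the intervals are given as the bounds of what these libraries allow. Over the 10 genes, the 95% intervals of limma, which are not adjusted for the number of genes, ran from 73.9% of the control level (the lower bound for Rp1) to 131% (the upper bound for Rbp3). Each of the 10 intervals included 100%.

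**Figure D1:**
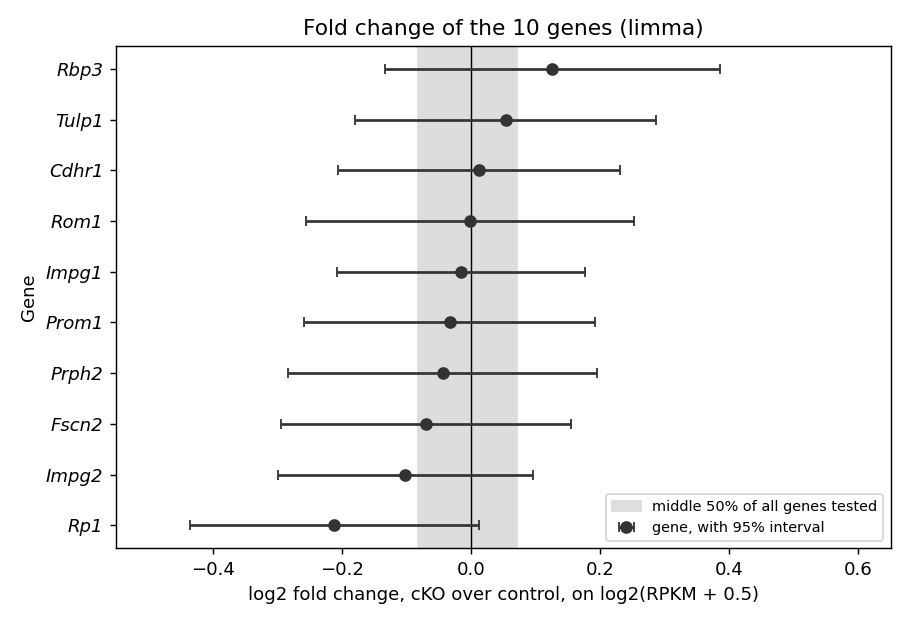
Log2 fold change of each of the 10 genes, cKO over control, with its 95% interval from limma (points and bars, n = 3 libraries per group), over the middle 50% of all 12599 genes tested (grey band, −0.082 to 0.071). Every interval includes 0, and Rp1 at −0.21 and Impg2 at −0.10 on the low side and Rbp3 at 0.13 on the high side lie outside the band.

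The levels spanned a wide range that was ordered nearly alike in every library. RPKM is per length, so levels of different genes can be set side by side as far as the length used for each gene holds. Whether these lengths are those of the messengers present was not tested. From the highest mean over the 6 libraries to the lowest, the order was Rom1, Prph2, Rbp3, Tulp1, Cdhr1, Prom1, Fscn2, Rp1, Impg1 and Impg2. For 7 of the 9 pairs of neighbours the order held in 6 of 6 libraries, with ratios of the mean levels between 1.17 (Rom1 over Prph2) and 2.48 (Impg1 over Impg2). Prom1 and Fscn2 did not differ beyond the spread of the libraries: their mean levels stood at a ratio of 1.04 and Prom1 was the higher in 2 of 3 cKO and 2 of 3 control libraries. Rp1 was above Impg1 in 2 of 3 cKO and in 3 of 3 control libraries. The 10 genes together summed to between 5462 and 5768 RPKM in cKO libraries and between 5457 and 5829 RPKM in control libraries, or between 1.74% and 1.98% of all RPKM in a cKO library and between 1.84% and 1.96% in a control library.

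**Figure D2:**
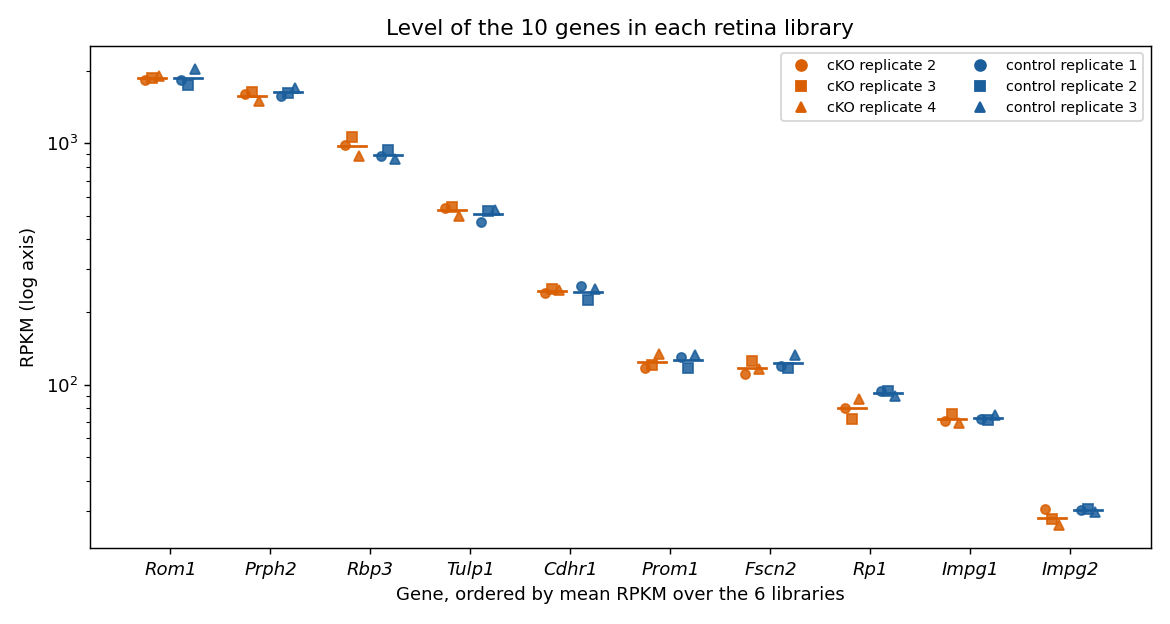
RPKM (log axis) of each of the 10 genes in every library, with cKO libraries in orange and control libraries in blue, a marker for each replicate and a short line at the mean of each group of 3. The genes run from Rom1, between 1740 and 2036 RPKM, to Impg2, between 26.1 and 30.4 RPKM, and only for Rp1 do the 2 groups not overlap.

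The disc rim is held by Prph2, a tetraspanin also known as peripherin-2 or rds, and by Rom1, its close relative, which joins it in complexes. They were the most abundant of the 10. Prph2 (chromosome 17, 46910459 to 46924933 in GRCm38, plus strand) was at 1602, 1627 and 1503 RPKM in cKO replicates 2, 3 and 4, against 1567, 1613 and 1697 RPKM in control replicates 1, 2 and 3. Rom1 (chromosome 19, 8927391 to 8929356, minus strand) was at 1830, 1858 and 1900 RPKM in cKO retinas and at 1832, 1740 and 2036 RPKM in control retinas. The groups overlapped for both genes, and every cKO value lay within the control range except that of Prph2 in cKO replicate 4, which was below it. The log2 fold change was −0.044 ± 0.10 (SE) for Prph2 and −0.0018 ± 0.11 (SE) for Rom1 (limma adjusted p = 0.997 and 0.999). In percent of control, the 95% interval was 82.2% to 114% for Prph2 and 83.7% to 119% for Rom1.

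The balance of the messengers of the rim proteins can be read within a library, where depth cancels. The ratio of Rom1 to Prph2 in RPKM was 1.14, 1.14 and 1.26 in cKO libraries and 1.17, 1.08 and 1.20 in control libraries, with means of 1.18 ± 0.0705 and 1.15 ± 0.0628 (SD, n = 3 each). The ranges overlapped, and an exact two-sided permutation test gave p = 0.6, where 3 against 3 libraries cannot go below 0.1. The same test was run for 2 further ratios given below, and the adjusted p over the 3 was 0.8 for each.

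Among the genes that shape new discs at the base of the outer segment, Prom1 (prominin-1) marks the edges of the growing folds, Cdhr1 (a cadherin-related protein, also called PCDH21) sits at their leading edge, and Fscn2 is a fascin that bundles actin. Prom1 (chromosome 5, 43993620 to 44102032, minus strand) was at 118, 121 and 134 RPKM in cKO and at 131, 117 and 133 RPKM in control retinas. Cdhr1 (chromosome 14, 37077857 to 37098347, minus strand) was at 239, 249 and 246 RPKM in cKO and at 256, 224 and 248 RPKM in control retinas. For Prom1 the cKO and control ranges covered nearly the same span, and for Cdhr1 the cKO values lay inside the control range. Fscn2 (chromosome 11, 120361534 to 120368168, plus strand) was at 110, 125 and 116 RPKM in cKO and at 120, 117 and 133 RPKM in control retinas, with the lowest value in a cKO and the highest in a control library and the others interleaved. Their log2 fold changes were −0.033 ± 0.097, 0.012 ± 0.095 and −0.070 ± 0.097 (SE) in that order, with a limma adjusted p of 0.997 for each. The intervals were 83.6% to 114%, 86.6% to 117% and 81.6% to 111% of control.

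Rp1, a doublecortin family protein that binds the microtubules of the axoneme and helps to align the discs, had the largest difference of the 10. It lies on chromosome 1 (3999557 to 4409241, minus strand) and was at 80.0, 72.3 and 87.2 RPKM in cKO retinas, against 93.7, 93.8 and 89.5 RPKM in control retinas. All 3 cKO values lay below all 3 control values, and the gap between cKO replicate 4 and control replicate 3 was narrow. The mean was 79.8 ± 7.42 RPKM in cKO and 92.3 ± 2.46 RPKM in control retinas (SD, n = 3 each), or 86.5% of control. With a log2 fold change of −0.21 ± 0.097 (SE) it missed the threshold (limma adjusted p = 0.883), and the interval was 73.9% to 101% of control. Rp1 rests on between 12852 and 25266 reads in a cKO library and between 31443 and 35626 in a control library, which gives counting errors of at most 0.882%, against a spread of 9.30% (coefficient of variation) over the cKO libraries and 2.67% over the control libraries.

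Rp1 also has the longest gene model of the 10, 9747 bp, and Impg2 the second longest, 6912 bp, and these were the genes with the lowest fold changes. Over all genes tested, the 1428 with a model over 6000 bp had a median log2 fold change of −0.037, against 0.00040 for the rest. With the trend on length taken out of each library, the log2 fold change was −0.16 for Rp1 and −0.076 for Impg2, each still below 0. Whether fragment length or RNA integrity moves with these values was not tested.

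**Figure D3:**
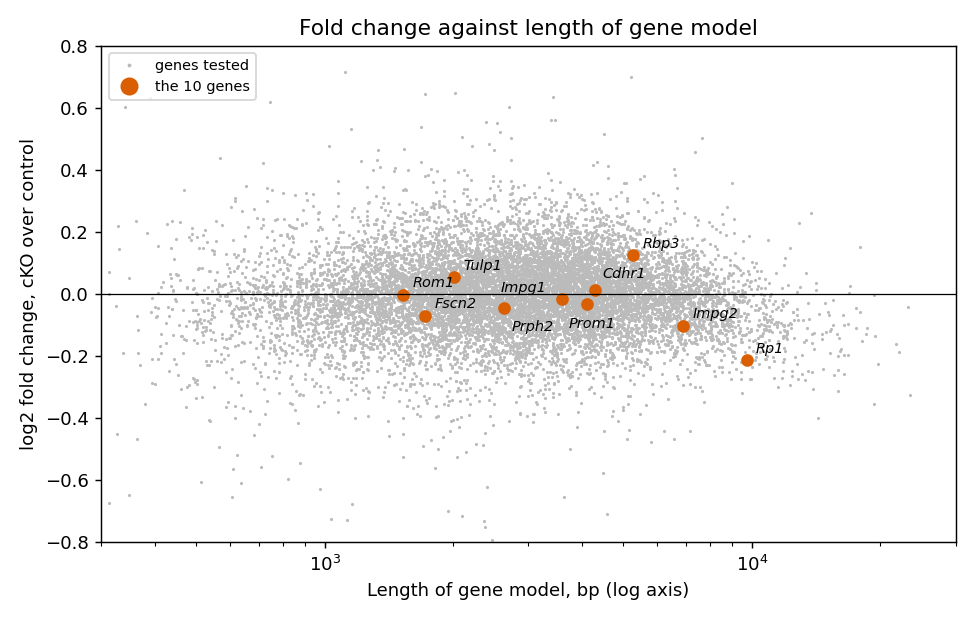
Log2 fold change, cKO over control, against the length of the gene model in bp (log axis) for 12458 of the genes tested (grey) and for the 10 genes (orange), with 141 tested genes outside the axes. Rp1, at 9747 bp and −0.21, and Impg2, at 6912 bp and −0.10, are the longest and the lowest of the 10.

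The axoneme has a second protein of this family in photoreceptors, Rp1l1, which is not among the 10. It was at 90.2, 73.6 and 68.8 RPKM in cKO and at 89.5, 87.6 and 79.3 RPKM in control retinas, so that the groups overlapped (log2 fold change −0.15 ± 0.12 SE, limma adjusted p = 0.984). The ratio of Rp1l1 to Rp1 was 1.13, 1.02 and 0.789 in cKO libraries and 0.955, 0.934 and 0.886 in control libraries. The control ratios thus lay inside the wider cKO range, and the exact two-sided permutation p was 0.8 (mean 0.978 ± 0.173 in cKO and 0.925 ± 0.0352 in control libraries, SD, n = 3 each). Without cKO replicate 2 the difference in log2 ratio changed sign.

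Tulp1, a tubby-like protein needed to carry proteins to the outer segment, lies on chromosome 17 (28351515 to 28365222, minus strand). It was at 540, 547 and 498 RPKM in cKO retinas and at 474, 523 and 531 RPKM in control retinas, with 2 cKO values above the control range and 1 within it. On the log2 scale the difference was 0.054 ± 0.10 (SE, limma adjusted p = 0.997), and the interval ran from 88.3% to 122% of control.

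In the matrix, Impg1 and Impg2 are related proteoglycans, of which Impg2 has a membrane anchor. Impg1 (chromosome 9, 80313330 to 80465481, minus strand) was at 70.4, 75.5 and 69.5 RPKM in cKO and at 71.7, 71.2 and 74.8 RPKM in control retinas, with control values inside the cKO range. Impg2 (chromosome 16, 56204313 to 56273756, plus strand) was at 30.4, 27.7 and 26.1 RPKM in cKO and at 30.2, 30.4 and 29.7 RPKM in control retinas. For Impg2, cKO replicate 2 was just above the highest control value while cKO replicates 3 and 4 lay below the control range. Log2 fold changes were −0.016 ± 0.083 for Impg1 and −0.10 ± 0.086 for Impg2 (SE, limma adjusted p = 0.997 and 0.984), with intervals of 86.6% to 113% and 81.3% to 107% of control. The value of Impg2 was −0.16 without cKO replicate 2 and −0.051 without cKO replicate 4. The ratio of Impg2 to Impg1 was 0.432, 0.367 and 0.375 in cKO libraries, against 0.421, 0.427 and 0.397 in control libraries. Again 1 cKO library was above and 2 were below the control range (exact two-sided permutation p = 0.4, mean 0.392 ± 0.0357 in cKO and 0.415 ± 0.0158 in control libraries, SD, n = 3 each). The log2 difference of this ratio was −0.088, against −0.16 without cKO replicate 2 and −0.042 without cKO replicate 3. The let-7a match shown above lies in Impg2, and whether it bears on this level was not tested.

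**Figure D4:**
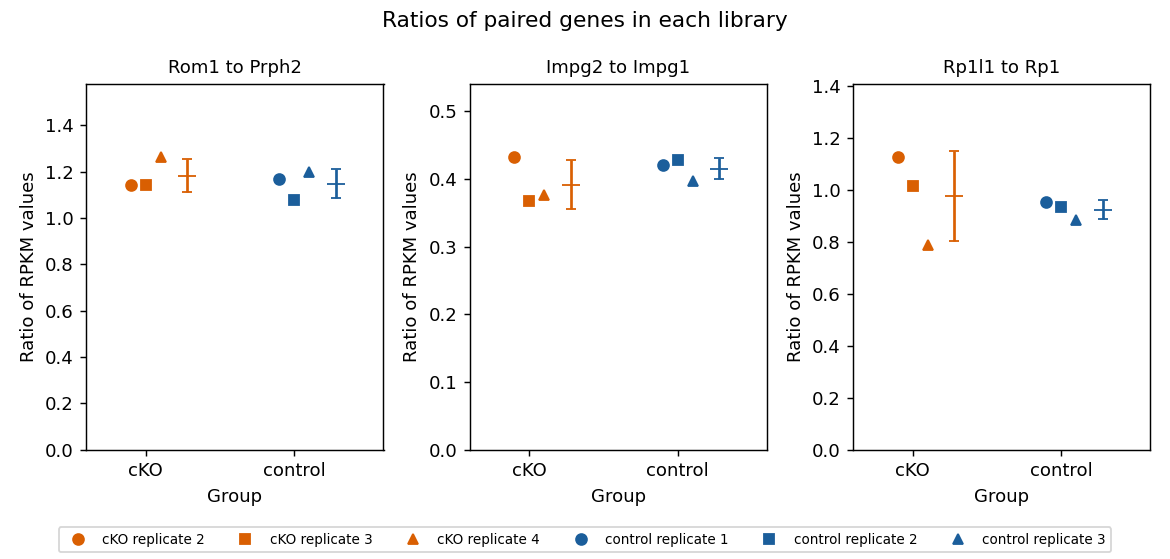
Ratio of RPKM values of Rom1 to Prph2, Impg2 to Impg1 and Rp1l1 to Rp1 in every library (markers by replicate, cKO in orange and control in blue), with the mean and SD of each group of 3 beside them. The groups overlap in all 3 panels, and the cKO ratios of Rp1l1 to Rp1, from 0.789 to 1.13, spread wider than the control ratios, from 0.886 to 0.955.

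Rbp3, also called IRBP, is the soluble carrier of retinoids in the matrix and had the highest fold change of the 10. It lies on chromosome 14 (33954003 to 33964216, plus strand) and was at 985, 1065 and 883 RPKM in cKO retinas, against 882, 942 and 858 RPKM in control retinas. The values of cKO replicates 2 and 3 were above the control range and that of cKO replicate 4 was within it. Means were 978 ± 91.0 RPKM in cKO and 894 ± 43.5 RPKM in control retinas (SD, n = 3 each), or 109% of control. On the log2 scale the difference was 0.13 ± 0.11 (SE, limma adjusted p = 0.988), and the interval ran from 91.1% to 131% of control. Without cKO replicate 3 the log2 fold change was 0.062.

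Rbp3 carries the match for miR-182 and was also the 1 gene, of 9 with a promoter window, that held the exact letters of a CRX core searched here. CRX is a homeodomain factor that drives many photoreceptor genes. Of the 10 genes, 9 had a window in the RefSeq table of promoters (250 bases before to 50 after the start), and Rp1 was not among them. The letters TAATCC, a core of CRX sites, were searched on both strands and stood in 1 of the 9, and in 7.05% of the 8926 tested genes with a window. TGCTGAC, a part of the element bound by the rod factor NRL, stood in 0 of the 9 on either strand and in 4.41% of those 8926 genes. The search says only where these exact letters lie in these windows, and no binding was measured. Shorter or variant forms of CRX sites were not searched, so the other windows may hold them. The 250 bases before the start of Rbp3 are printed to show this match, which is in capitals and lies on the opposite strand. Whether it bears on the level of Rbp3 was not tested.
Rbp3 promoter, chr14:33953753-33954002 (GRCm38.p6, plus strand): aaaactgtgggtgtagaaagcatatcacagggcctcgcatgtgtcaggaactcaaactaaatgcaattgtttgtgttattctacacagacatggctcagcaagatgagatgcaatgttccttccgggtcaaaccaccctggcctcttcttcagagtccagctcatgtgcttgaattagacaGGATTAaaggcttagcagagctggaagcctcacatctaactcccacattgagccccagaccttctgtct

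For 9 of the 10 genes the spread between libraries was larger than counting error in both groups, and for Impg2 it was so in cKO and close to counting error in control retinas. The coefficient of variation over 3 libraries was between 1.88% (Rom1) and 9.31% (Rbp3) in cKO and between 1.16% (Impg2) and 8.10% (Rom1) in control retinas. The reads behind a value numbered between 2729 (Impg2, cKO replicate 4) and 201402 (Rbp3, cKO replicate 3), for which counting alone gives errors between 0.223% and 1.91%. Of the 7175 exon bases of Prom1, 424 are shared with 1 other annotated gene, Gm16401. Reads within these 424 bases cannot be told apart in libraries without a strand mark. The other 9 genes share no exon bases with another gene in GENCODE M21.

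Related genes of the discs and axoneme, listed by function, gave a similar picture with 1 exception. Of 18 symbols 16 were in the table and tested, and 0 passed the adjusted threshold in either direction, with 6 higher and 10 lower by mean log2 value and a median log2 fold change of −0.078. All 3 cKO values lay below all 3 control values for 2 of the 16 and above them for 1, against 5.78% and 5.91% of all genes tested. Abca4, a lipid transporter of the disc rim, was among those below, at 116, 114 and 115 RPKM in cKO and 120.5, 126 and 117 RPKM in control retinas (log2 fold change −0.082 ± 0.083 SE, limma adjusted p = 0.995). Rgs9bp, the anchor of the RGS9 complex on discs, had the lowest p of the list, at 259, 241 and 259 RPKM in cKO and 131, 141 and 141 RPKM in control retinas (log2 fold change 0.88 ± 0.089 SE, limma adjusted p = 0.0692). It passed in 5 of the 15 alternatives run, among them the replicate block described below. It did not pass when any single library was left out (limma adjusted p between 0.139 and 0.910). Over all 15 alternatives its log2 fold change lay between 0.82 and 0.91.

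Further matrix genes, and genes related to the 10 by family or by name, also held no call. Of 15 matrix symbols 14 were in the table and 10 were tested, with 0 past the threshold, 6 higher and 4 lower by mean log2 value and a median log2 fold change of 0.043. Mfge8, a secreted glycoprotein that takes part in the uptake of shed outer segments, was the most abundant, at 228 ± 14.7 RPKM in cKO and 217 ± 9.81 RPKM in control retinas (SD, n = 3 each). Of 12 such relatives, all in the table, 6 were tested, with 0 past the threshold, 5 higher and 1 lower by mean log2 value and a median log2 fold change of 0.077. Tub, the founding member of the family of Tulp1, was both the most abundant and the one with the lowest p, at 79.7, 78.1 and 80.2 RPKM in cKO and 70.0, 72.9 and 65.6 RPKM in control retinas (log2 fold change 0.19 ± 0.084 SE, limma adjusted p = 0.874). The relatives Prom2, Fscn3 and Tulp2 were below 1 RPKM on average, so among prominins Prom1 held most of the level in these retinas. Among tubby-like genes Tulp1 did, with a mean of 518.5 RPKM over the 6 libraries, against 74.4 for Tub, 6.92 for Tulp3 and 5.24 for Tulp4. Of the fascins, Fscn1 had a mean of 59.7 RPKM, against 120 for Fscn2.

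The genes of the table whose course over the 6 libraries was most like the mean of the 10, centred per gene on the log2 scale, were Cryl1, Slc9a3r2 and Ruvbl1, with Pearson r of 0.989, 0.979 and 0.975 over 6 libraries. These are descriptions of 6 points that share depth and composition, and the mean of the 10 moved little, from −0.032 in cKO replicate 4 to 0.053 in control replicate 3.

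Whole-table facts that touch these values are few. Reads in genes, worked back from the RPKM steps, numbered between 12336599 and 29007472 in cKO libraries and between 27204998 and 32935029 in control libraries. The targeted gene Dicer1 was at 8.02, 7.06 and 7.90 RPKM in cKO and at 8.48, 8.77 and 8.33 RPKM in control retinas. All 3 cKO values lay below all 3 control values, which also held for 5.78% of all genes tested. In limma the Dicer1 difference came to −0.15 ± 0.079 (SE) on the log2 scale, with 0.931 as adjusted p. The Dicer1 model has 9851 bp, and with the trend on length taken out of each library the difference was −0.088. The level of Dicer1 also counts exons outside the floxed part and cells without Cre, whose part in the difference was not tested. Rod markers, 7 of 7 of them tested, were present at a mean of at least 1 RPKM each, as the labelled tissue should hold. Markers of cones, bipolar and amacrine cells, Müller glia and pigment epithelium, led by Opn1sw, Grm6, Slc6a9, Clu and Ttr, were all above 0, and microglial markers, led by C1qb, summed to at most 22.5 RPKM in a cKO and 21.4 RPKM in a control library. Lens markers, led by Cryaa, summed to between 199.9 and 2408 RPKM in cKO libraries and between 343 and 3245 RPKM in control libraries, so the amount of lens RNA differed widely within each group. Of 5 red blood cell markers 4, all globin genes, were listed at 0 in every library, and Alas2 was at most 1.32 RPKM. These zeros do not by themselves show that blood was absent, and their source was not tested. The part of these tissues in the values of the 10 genes was not tested.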

How the data were processed

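Poly(A) RNA of whole retina was sequenced in 6 libraries. The authors deposited 1 table of RPKM values per gene and library, to 5 decimals. The names GSNAP, HTSeq and mm9 are given, without roles or versions, per the submitters' processing notes. For the annotation and the reads counted in the depth, the sources used here give nothing. Each value is relative to depth, so abundant genes can shift the other values.

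Values were used as deposited. The test was limma 3.58.1 (R 4.3.3) on log2(RPKM + 0.5), trended variance, unblocked, for genes averaging at least 1 RPKM, two-sided, with Benjamini-Hochberg adjustment over all 12599 genes and a threshold of 0.05. The scripts were tested on simulated data. Ratios within a library were compared by exact permutation (SciPy 1.17.1). Whole reads and gene model lengths were worked back from the RPKM steps, which are whole multiples of 1 read within a gene. All 19140 genes above 0 gave whole reads that return the deposited values within 1e-05, but the length of each gene was chosen to do so. Of 4293 genes with 1 annotated length in GENCODE M21, 812 gave that length. The reads, counting errors and model lengths given here rest on this step. For cKO replicate 4, and equally for every other library, the values cannot show whether reads were counted 1 or 2 times. Nothing in the labels says that replicate numbers mark pairs, and whether the pools are separate litters is not given, so p-values measure the spread between pools.

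Coordinates and 3′ UTRs come from GENCODE M21 (GRCm38), which is not the authors' build and serves only to place genes. The second strand was made without a strand mark, per the labels' protocols. The 10 genes, the lists of related genes and markers, the microRNAs and the motifs were chosen with earlier results of these data known. Genes named outside the 10 are the most abundant and the lowest p of each list of related genes, the most abundant of each marker list, Dicer1 and the 3 most similar in course. Abca4, Gm16401 and the prominin, fascin and tubby-like relatives other than Tub were named after their values were seen. Some genes that this rule names are not reported here.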

Additional observations from a re-analysis of the deposited data

How the results depend on the processing

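None of the 10 genes passed in any of the 15 alternatives to the test, among them pseudocounts of 0.1 and 1, no filter or one at 5 RPKM, median-of-ratios scaling, voom on recovered reads, the length correction and leaving out each library. The lowest adjusted p of a member was 0.492 outside the replicate block and 0.17 within it, both for Rp1. Of 150 member values 140 kept their sign. The sign of Rom1 turned under median-of-ratios scaling (0.0039), voom (0.0016) and the length correction (0.0061). Leaving out 1 library gave Rom1 between −0.052 and 0.061, Prom1 between −0.087 and 0.0044, Cdhr1 between −0.044 and 0.051 and Impg1 between −0.052 and 0.0071, so the signs of these 4 depend on single libraries. The median of the 10 was −0.024 and lay between −0.051 and 0.0029 without each library in turn. The log2 difference of the Rom1 to Prph2 ratio lay between −0.0066 and 0.074, and that of Rp1l1 to Rp1 between −0.046 and 0.21, without each library in turn. Over all genes, 1 passed in the main test, 3 without the filter, 2 with a filter at 5 RPKM, 3 with median-of-ratios scaling, 2 by voom and 3 with the length correction.

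The replicate block on numbers 2 and 3, with 4 libraries and 1 residual degree of freedom, called 192 genes (86 higher and 106 lower), against 1 on these libraries without it, a setting added after seeing the data. The same-numbered libraries deviated together for number 2 (r = 0.465) and not for number 3 (r = −0.052), against −0.551 and −0.117 between libraries of unlike number. No label pairs these libraries, and with 1 of 2 pairs correlated they were not treated as pairs. The block called 0 of the 10 genes.

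With 3 pools per group, the standard errors of the 10 genes were about 0.1 on the log2 scale.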
